A study of Mus musculus with 8 samples.

Results

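The genes described here are the interferon-stimulated genes on the array, the transcripts that cells switch on when an interferon binds its receptor. The set was a list of 37 mouse gene symbols, and its members were all probe sets whose platform gene symbol is one of these. Of the 37 genes, 33 had at least 1 probe set of their own, 47 probe sets in all out of 22626, with 12393 genes carrying a single symbol on the array. TTE3, a line of testicular Sertoli cells, came from transgenic mice whose simian virus 40 large T-antigen is temperature-sensitive, and all groups carry it. The cells were kept at 39 °C, the temperature at which that antigen loses its function, for 0, 6, 12 or 24 h, with 2 arrays for each time. The 0 h group, the start of culture at 39 °C, stands as the comparison for every later time, so that the time elapsed, the heat and the loss of the antigen cannot be told apart. TTE3 is 1 cell line, and whether the paired arrays of each time hold separate cultures is not stated. The p-values therefore reflect the scatter among these samples alone, which may be technical. The labels name no interferon or other agent.

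Interferons are secreted proteins that act through receptors coupled to JAK kinases. After type I interferon, a complex that holds Stat2 and Irf9 binds the interferon-stimulated response element in target promoters, while the response to interferon gamma runs mainly through the gamma-activated site. The targets include RNA sensors, antiviral effectors, GTPases that attack vacuoles, and the transcription factors of the pathway itself, so the response amplifies itself. In the testis, Sertoli cells can make interferon and switch on antiviral genes when exposed to virus.

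Promoters are shown for the 4 members with the largest changes among those that passed a test and held the core of the response element. These letters match the core of the element that the pathway's complex binds, and binding to them was not measured. Each is the RefSeq sequence of 250 bases before to 50 after the annotated gene start in build GRCm38.p6, read along the gene's strand, with the cores in capitals. The Trim21 promoter is chr7:102565433-102565732 and the Ifitm3 promoter is chr7:141010695-141010994, both on the minus strand. The Ifih1 promoter is chr2:62646206-62646505 on the minus strand, and the Igtp promoter is chr11:58199306-58199605 on the plus strand.
Trim21: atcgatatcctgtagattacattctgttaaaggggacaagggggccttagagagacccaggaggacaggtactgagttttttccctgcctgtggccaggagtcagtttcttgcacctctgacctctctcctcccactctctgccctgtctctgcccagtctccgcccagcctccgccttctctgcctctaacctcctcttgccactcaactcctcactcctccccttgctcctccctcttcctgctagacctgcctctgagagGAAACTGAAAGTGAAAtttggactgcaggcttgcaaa
Ifitm3: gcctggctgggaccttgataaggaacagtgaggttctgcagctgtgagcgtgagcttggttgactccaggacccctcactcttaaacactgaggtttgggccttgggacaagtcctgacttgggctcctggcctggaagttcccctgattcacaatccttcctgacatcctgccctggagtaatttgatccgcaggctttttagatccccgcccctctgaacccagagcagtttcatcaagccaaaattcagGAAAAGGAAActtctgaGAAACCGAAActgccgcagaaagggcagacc
Ifih1: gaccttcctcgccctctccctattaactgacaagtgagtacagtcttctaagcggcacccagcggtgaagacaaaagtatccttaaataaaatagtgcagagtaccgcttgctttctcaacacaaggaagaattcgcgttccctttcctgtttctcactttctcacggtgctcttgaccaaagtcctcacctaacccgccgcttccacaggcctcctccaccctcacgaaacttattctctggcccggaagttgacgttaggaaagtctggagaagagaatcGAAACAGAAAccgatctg
Igtp: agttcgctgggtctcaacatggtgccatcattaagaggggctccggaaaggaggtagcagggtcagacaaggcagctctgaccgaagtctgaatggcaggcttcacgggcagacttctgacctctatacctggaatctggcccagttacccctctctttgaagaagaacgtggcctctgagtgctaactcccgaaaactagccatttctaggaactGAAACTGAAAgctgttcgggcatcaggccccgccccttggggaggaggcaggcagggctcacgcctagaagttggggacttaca

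The core searched was GAAA, any 2 bases (NN) and GAAA again, on both strands, and it can overlap with itself. Of the 33 members, 27 matched the promoter table by symbol, and 15 of these held the core in at least 1 promoter, which is 55.6% of them. Over the whole table, 3.99% of 27025 genes and 3.44% of 32851 promoters held it. The palindromic core of the gamma-activated site, TTCNNNGAA, lay in the promoters of 10 of the 27 members, or 37.0%, against 9.55% of all genes and 8.30% of all promoters. In Ifitm3 and Bst2 the 2 motifs overlapped. The response element core was found in 9 of the 14 matched members that passed a test against 0 h, in 2 of 6 that were tested and did not, and in 4 of 7 that were too dim to test. The 9 include Eif2ak2, whose only call against 0 h was a fall, at 6 h. The core was not found in these windows for Irf1, Ifit2, Ifi35, Trim25 and Lgals3bp, which passed a test against 0 h, nor for Irf7, Irf9, Adar and Samhd1. These matches are descriptions of letters, and no binding was measured.

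**Figure D1:**
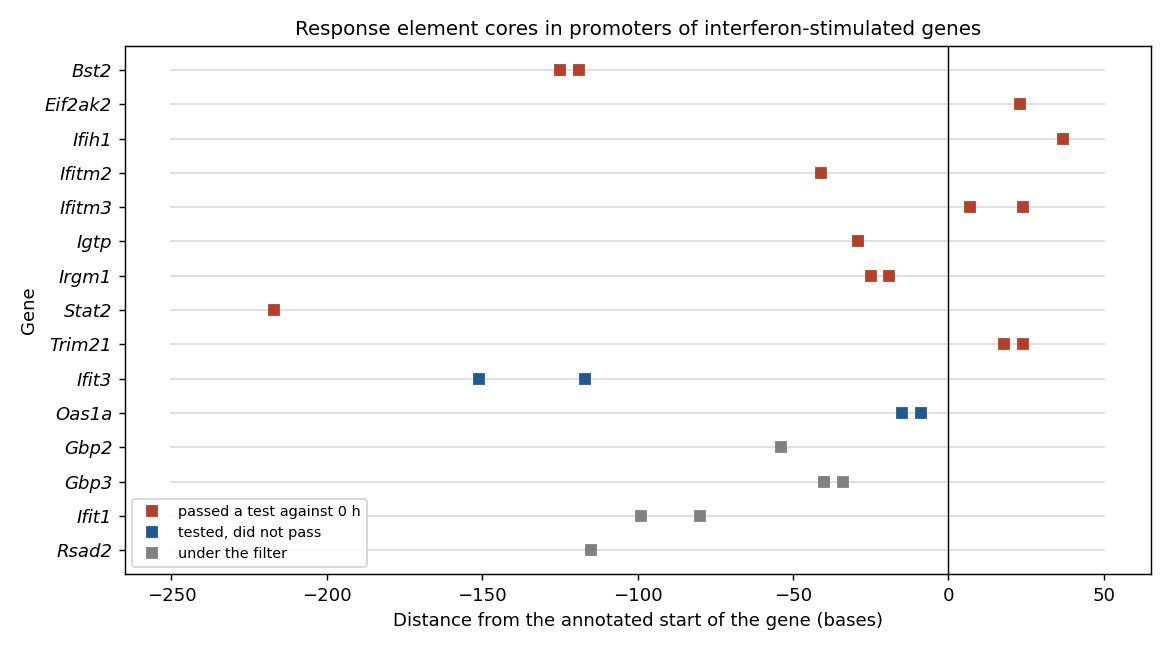
Position of each response element core (squares, middle of the core) from the annotated gene start, in bases, for the 15 members that held one in the 300-base window (grey line). Red squares are genes that passed a test against 0 h (Eif2ak2 only by a fall), blue squares were tested and did not pass, and grey squares were under the filter. The core lies within 30 bases of the start in Eif2ak2, Ifitm3, Igtp, Irgm1, Trim21 and Oas1a, and at -217 in Stat2.

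The 30-base windows around the cores of 6 further members show the same letters in other settings. The Bst2 window is chr8:71537580-71537609, the Eif2ak2 window is chr17:78882535-78882564, the Ifitm2 window is chr7:140955988-140956017 and the Irgm1 window is chr11:48871428-48871457, all on the minus strand. The Gbp2 window is chr3:142620594-142620623 and the Stat2 window is chr10:128270266-128270295, both on the plus strand, where the core reads on the opposite strand. Bst2 and Irgm1 carry 2 overlapping cores, as Trim21 does.
Bst2: attccagGAAAATGAAACTGAAAggctgca
Eif2ak2: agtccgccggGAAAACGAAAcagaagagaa
Gbp2: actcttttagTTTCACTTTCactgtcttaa
Ifitm2: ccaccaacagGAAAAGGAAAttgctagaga
Irgm1: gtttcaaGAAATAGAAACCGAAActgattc
Stat2: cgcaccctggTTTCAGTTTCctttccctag

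Intensities are the deposited signal units of each probe set, scaled by the submitters to a trimmed mean of about 500.2 on each array, with array medians between 138 and 154.3 units. Log2 changes were computed on log2(intensity + 21.9), which understates the change of dim genes, and an adjusted p is that of limma's moderated test with Benjamini-Hochberg adjustment over 13576 tested probe sets, called below 0.05. A gene is represented by its brightest probe set. Genes whose log2 values averaged below 6.58, which is about 74.0 units, were left out of the test as too dim. This kept 20 of the 33 members, on 25 probe sets. In a bulk sample, fewer cells of a type and less RNA per cell cannot be told apart. Intensities of different genes come from different probes and were not compared.

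Most of the interferon-stimulated genes that could be tested were higher after 24 h at 39 °C. At 24 h, 13 of the 20 tested members were higher than at 0 h and none was lower, by between 1.21-fold for Ifitm2, a membrane protein that blocks virus entry, and 2.80-fold for Trim21, a cytosolic antibody receptor. The 13 were Stat2, Irf1, Ifih1, Ifit2, Ifitm2, Ifitm3, Bst2, Igtp, Irgm1, Ifi35, Trim21, Trim25 and Lgals3bp, and all 13 had their largest change at that time. At an unadjusted p under 0.05, 15 members were higher in the same limma fit and 0 lower. Among all 7707 tested genes, 18.6% were called higher and 16.6% lower in this comparison, against 65% of the tested members called higher. The median log2 change of the tested members was 0.67 at 24 h, against 0.02 for all genes tested. A filter on mean brightness favours members that came up, and Stat2, for one, averaged 73.4 units at 0 h. The same medians were taken without any filter, over all 33 members, and were 0.38 for the members and 0.03 for all genes. With each array centred on its median, 1061 of all genes were called higher and 1688 lower at 24 h, against 1430 and 1282 as deposited, and 11 members were called higher.

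The earlier times held fewer calls. At 6 h, 2 members were higher, Trim21 and Irgm1, beside 9.15% of all genes, and 1 was lower, Eif2ak2, beside 9.33%, which is close to the background. At 12 h, 7 members were higher, Stat2, Irf1, Ifitm3, Igtp, Irgm1, Ifi35 and Trim21, beside 13.3% of all genes, and none was lower, beside 12.0% (limma, and 0 at an unadjusted p under 0.05). All 7 were also called at 24 h. The median log2 change of the members was 0.16 at 6 h and 0.35 at 12 h, against 0.01 and 0.02 for all genes. The comparisons with 0 h share the same 2 starting arrays, so they are not independent of each other.

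**Figure D2:**
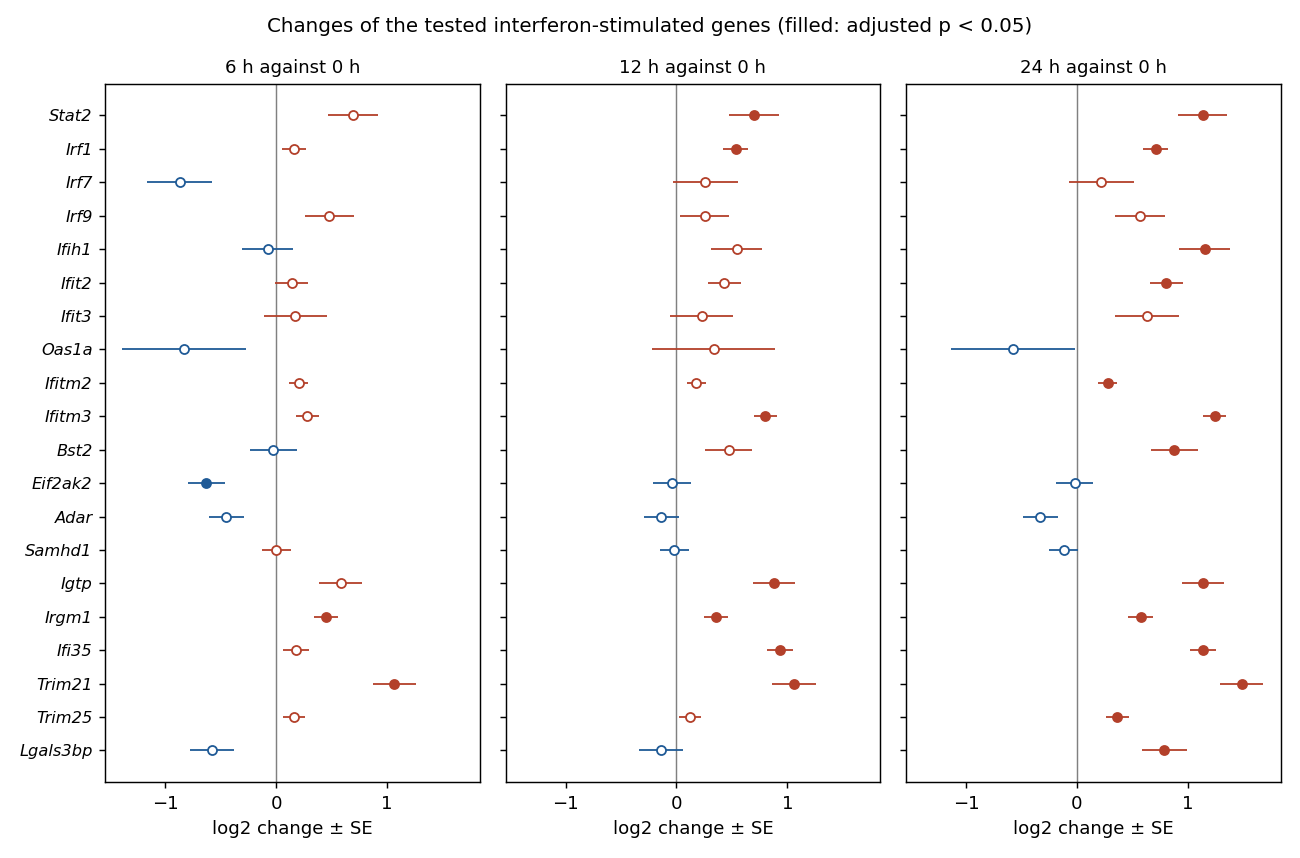
Log2 change (points) with its standard error (bars) of the 20 tested members at 6, 12 and 24 h, each against 0 h with 2 arrays per time, in the order transcription factors, sensors, antiviral effectors, GTPases and others. Filled points passed at adjusted p below 0.05. Filled points number 3 at 6 h, 7 at 12 h and 13 at 24 h, and at 12 and 24 h all lie right of 0.

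By array, both 24 h arrays lay above both 0 h arrays for 15 of the 20 tested members, beside 37.8% of all genes. For Adar and Samhd1 both 24 h arrays lay below both 0 h arrays, beside 35.3% of all genes. In the test over all 4 times, 13 of 20 members passed, beside 42.0% of all genes. Without the second 24 h array fewer members passed, and fewer of all genes did too. These 13 include Irf7 and Eif2ak2, whose lowest arrays were those of 6 h, and leave out Trim25 (adjusted p = 0.0632) and Ifitm2 (adjusted p = 0.0976).

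The label of the cells was checked against markers. Of 12 Sertoli markers with a probe set, 8 could be tested (Sox9, Clu, Gata4, Wt1, Inha, Inhbb, Krt18 and Kitl), while Amh, Dhh, Fshr and Cldn11 were too dim. The list's summed intensity was 8913 to 9784.5 units at 24 h, against 6423 to 6498.7 units at 0 h. Clu, a secreted chaperone, held most of that difference, with a mean of 3764 units at 24 h, against 1366 units at 0 h. Inhbb also passed as higher at 24 h (0.51, adjusted p = 0.0188), though its second probe set did not pass (0.53, adjusted p = 0.230). On their brightest probe sets Sox9, Gata4, Krt18 and Kitl stood higher without passing. Wt1 (-0.27, adjusted p = 0.340) and Inha (-0.20, adjusted p = 0.536) stood lower without passing. Ptprc, the common surface marker of leukocytes, read 3.5 to 33.4 units on the 8 arrays. Of 12 leukocyte markers 4 could be tested, and the list summed to 845.3 to 876.1 units at 24 h, against 657.6 to 827 units at 0 h, with Cd68, a lysosomal protein of macrophages, 0.59 higher on the log2 scale (adjusted p = 0.0306). The other tested leukocyte markers did not pass at 24 h and went both ways, with Laptm5 at 0.87 (adjusted p = 0.0918), Csf1r at -0.38 (adjusted p = 0.172) and Cd14 at -0.13 (adjusted p = 0.693). The germ cell list summed to 1366.9 to 1387.1 units at 24 h, against 421.5 to 500.1 units at 0 h, and that difference was nearly all Kit (1.96, adjusted p = 1.36e-05). The other markers of this list were too dim to test, and of these Ddx4, Stra8 and Prm1 had lower means at 24 h than at 0 h. Dazl and Sycp3 had higher means, 22.6 and 9.55 units at 24 h, against 2.55 and 1.1 units at 0 h. The Leydig list summed to 248 to 326.1 units at 24 h, against 96.8 to 157.9 units at 0 h, nearly all of it Star (1.18, adjusted p = 0.00327). A second Star probe set rose by more (2.06, adjusted p = 0.000294). The third, under the filter, had a mean of 440.85 units at 24 h, against 36.05 units at 0 h. Cyp11a1, Cyp17a1 and Hsd3b1, enzymes of steroid synthesis, were near the floor at both times, with means of 7.5, 10.35 and 10.65 units at 24 h, against 5.95, 10.05 and 6.8 units at 0 h. Endothelial markers were all too dim, at 209.4 to 239.9 units summed at 24 h, against 174.8 to 178.8 units at 0 h. Pecam1 held that difference, with a mean of 63.15 units at 24 h, against 10.2 units at 0 h. Cdh5 also had a higher mean at 24 h, and Kdr, Tek, Tie1 and Emcn had lower ones. Myoid markers summed to 270.6 to 358.8 units at 24 h, against 282.7 to 347.3 units at 0 h. The part of any of these in the rise of the interferon-stimulated genes was not tested.

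All 4 transcription factors of the set were tested, and 2 of them were called higher against 0 h. Stat2, the subunit that carries the activation domain of the type I complex, read 58.1 and 88.7 units at 0 h, 133.5 and 127.5 at 6 h, 153.2 and 111.1 at 12 h, and 184.7 and 184.5 at 24 h. Every array from 6 h onward lay above both starting arrays. Its change at 24 h was 2.20-fold (log2 1.13 ± 0.22 SE, adjusted p = 0.00278), and at 6 h it was 0.70 with an adjusted p of 0.0535. The call at 12 h (0.70, adjusted p = 0.0430) was lost with quantile normalization (adjusted p = 0.0709) and with the arrays centred (0.0589). With no filter (adjusted p = 0.113) and with only the 2 times fitted (0.0858) the 12 h call was lost too. Leaving out the first 0 h array (log2 change 0.46), the first 12 h array (0.50) or either 24 h array also lost it. A second, dimmer Stat2 probe set was under the filter. Irf1, a factor induced by both kinds of interferon that also restrains cell growth, read 561.4 and 573.3 units at 0 h, 587.5 and 690.3 at 6 h, 830.8 and 830.7 at 12 h, and 949.5 and 935.2 at 24 h. The replicates were close at 0, 12 and 24 h. From 12 to 24 h the step did not pass (0.18, adjusted p = 0.384), though both 24 h arrays lay above both 12 h arrays. The groups at 12 and 24 h were apart from 0 h. The change was 0.53 at 12 h (adjusted p = 0.00591) and 0.71 ± 0.11 SE at 24 h, or 1.64-fold (adjusted p = 0.000679), where the 12 h call missed without the first 0 h array (adjusted p = 0.0528).

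The other 2 factors passed no comparison with 0 h. Irf7, which drives the interferon alpha genes, read 80.2 and 174.8 units at 0 h, 44.7 and 68.4 at 6 h, 147.5 and 148.5 at 12 h, and 145.1 and 141.0 at 24 h. The 2 starting arrays lay far apart, and the 6 h arrays lay below all others. Its change at 6 h was -0.87 ± 0.29 SE (adjusted p = 0.0620) and at 24 h 0.22 (adjusted p = 0.610), so it passed only in the test over all times (adjusted p = 0.0263) and from 6 to 12 h. Irf9, the subunit of the complex that contacts DNA, ran from 77.9 to 143.5 units over the 8 arrays, and both 24 h arrays lay above both 0 h arrays without passing (0.57 at 24 h, adjusted p = 0.0718).

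Of the 3 cytosolic RNA sensors, 1 could be tested and it rose late. Ifih1, which recognises long double-stranded RNA, read 106.8 and 112.1 units at 0 h, 77.7 and 134.0 at 6 h, 147.5 and 194.4 at 12 h, and 270.4 on both arrays at 24 h. The groups at 0 and 6 h overlapped and the 24 h arrays were the highest. It was 2.23-fold higher at 24 h (1.15 ± 0.23 SE, adjusted p = 0.00278) and did not pass at 12 h (0.54, adjusted p = 0.108). Dhx58, a regulator of the sensors, was too dim, and Ddx58 was not analysed here.

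The antiviral effectors were the largest group, with 17 listed, 16 on the array and 9 tested. At 24 h 4 of the 9 rose, all members of the Ifit or Ifitm families or Bst2. Ifitm3, a membrane protein that keeps viruses from fusing out of endosomes, read 1103.5 and 1072.3 units at 0 h, 1207.0 and 1458.5 at 6 h, 1933.3 and 1893.7 at 12 h, and 2601.1 and 2606.4 at 24 h. Each time lay above the one before with no overlap. Its change was 0.80 at 12 h (adjusted p = 0.000439) and 1.24 ± 0.11 SE at 24 h, or 2.37-fold (adjusted p = 1.19e-05). Ifitm2, which lies near it on chromosome 7 and has the same role, read 3633.9 and 3647.0 units at 0 h, 4127.9 and 4254.8 at 6 h, 4269.7 and 3990.0 at 12 h, and 4530.7 and 4312.0 at 24 h. All later arrays lay above both starting ones, but by little, 1.21-fold at 24 h (0.28 ± 0.09 SE, adjusted p = 0.0311). That call was lost without the first (adjusted p = 0.151) or second 0 h array (0.138), without the first (0.180) or second 24 h array (0.0907), and with the arrays centred (0.206).

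Ifit2, which binds RNA and slows the translation of viral messages, read 244.8 and 213.2 units at 0 h, 261.7 and 246.5 at 6 h, 304.9 and 326.7 at 12 h, and 377.0 and 459.7 at 24 h. No array of a later time lay below the highest of 0 h. It was 1.75-fold higher at 24 h (0.81 ± 0.15 SE, adjusted p = 0.00170) and did not pass at 12 h (adjusted p = 0.0548). Its family member Ifit3 ran from 59.9 to 126.6 units and did not pass, though both 24 h arrays lay above both 0 h arrays (0.63 ± 0.29 SE, adjusted p = 0.114). Bst2, known as tetherin because it holds budding virions at the cell surface, read 206.2 and 149.7 units at 0 h, 159.4 and 186.2 at 6 h, 312.1 and 202.8 at 12 h, and 355.4 and 329.3 at 24 h. The 0 h arrays overlapped with those of 6 and 12 h, and the 24 h arrays were the highest. It was 1.84-fold higher at 24 h (0.88 ± 0.21 SE, adjusted p = 0.00800), a call lost without the second 0 h array (adjusted p = 0.0839) or the first 24 h array (adjusted p = 0.0596).

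Eif2ak2, Adar and Oas1a passed no test for a rise against 0 h. Eif2ak2, the kinase that stops translation on sensing double-stranded RNA, read 330.8 and 374.1 units at 0 h, 200.7 and 240.7 at 6 h, 294.2 and 395.1 at 12 h, and 323.9 and 371.8 at 24 h. The 6 h arrays lay below all others, and the other 3 times overlapped. It fell by 0.63 at 6 h (SE 0.17, adjusted p = 0.0251) and stood at -0.02 at 24 h (adjusted p = 0.947). The 6 h call was lost without the first 0 h array (adjusted p = 0.0845), the second 0 h array (0.164), the first 6 h array (0.108) and with no filter (0.0611), and a second probe set gave -0.40 (adjusted p = 0.176). Adar, which edits adenosine to inosine in such RNA, ran from 164.0 to 240.5 units and gave -0.45 at 6 h (adjusted p = 0.0696) and -0.33 at 24 h (adjusted p = 0.133). Oas1a, which makes the oligoadenylate that activates RNase L, scattered from 15.9 to 152.5 units with no call at any time.

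Samhd1, a hydrolase of deoxynucleotides, gave different answers from its probe sets. The probe set with the highest mean read 393.6 and 406.0 units at 0 h, 406.2 and 394.3 at 6 h, 364.3 and 425.7 at 12 h, and 344.7 and 389.9 at 24 h, with a change of -0.12 at 24 h (adjusted p = 0.535). The other tested one read 521.4 and 455.2 units at 0 h, 266.9 and 274.8 at 6 h, 331.6 and 390.7 at 12 h, and 325.8 and 363.3 at 24 h. On that probe set every later array lay below both starting arrays. It fell by 0.80 at 6 h (SE 0.14, adjusted p = 0.00313) and by 0.48 at 24 h (adjusted p = 0.0218), while a further pair of Samhd1 probe sets was under the filter. No direction can be given for the gene.

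Both tested GTPases of the immunity-related family rose, 2 of the 5 GTPases listed. Igtp, which guards membranes so that other GTPases attack only the vacuoles of intruders, read 78.5 and 73.8 units at 0 h, 120.2 and 129.4 at 6 h, 141.5 and 176.9 at 12 h, and 188.8 and 199.2 at 24 h. Every time lay above the one before without overlap. For Igtp, neither the step from 6 to 12 h (adjusted p = 0.367) nor that from 12 to 24 h (0.460) passed. It was 0.88 higher at 12 h (adjusted p = 0.00682) and 1.14 ± 0.19 SE higher at 24 h, or 2.20-fold (adjusted p = 0.000979), and the 12 h call missed without the second 12 h array (adjusted p = 0.0506). Irgm1, a relative with the same regulatory role that also takes part in autophagy, read 709.7 and 711.9 units at 0 h, 1007.3 and 951.5 at 6 h, 988.1 and 850.2 at 12 h, and 1118.8 and 1025.2 at 24 h. All later arrays lay above both starting ones, with the 12 h arrays the lowest of the later times on average. It was 1.49-fold higher at 24 h (0.58 ± 0.11 SE, adjusted p = 0.00240). Its 6 h call (0.45, adjusted p = 0.0177) was lost without the first or second 0 h array (adjusted p = 0.109 and 0.102) or the first 6 h array (0.0567). Its 12 h call (0.36, adjusted p = 0.0381) was lost without the first or second 0 h array (0.163 and 0.153), the first 12 h array (0.216), the first or second 24 h array (0.0591 and 0.0587), and with the arrays centred (0.104).

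Of the 8 remaining genes 4 were tested, and all 4 were higher at 24 h. Trim21, an E3 ubiquitin ligase that binds antibody-coated viruses in the cytosol, read 72.9 and 87.9 units at 0 h, 160.1 and 228.7 at 6 h, 183.9 and 197.9 at 12 h, and 249.9 and 279.4 at 24 h. Every later array lay above both starting arrays. It was the only tested member at least 2-fold higher as early as 6 h (2.09-fold, 1.07 ± 0.20 SE, adjusted p = 0.00419), and at 24 h it was 2.80-fold higher (1.49 ± 0.20 SE, adjusted p = 0.000206). A second probe set gave 0.57 at 6 h (adjusted p = 0.0820) and 0.85 at 24 h (adjusted p = 0.00944). Ifi35, a cytosolic protein induced by interferon, read 386.6 and 396.8 units at 0 h, 431.9 and 461.0 at 6 h, 794.9 and 743.0 at 12 h, and 833.3 and 945.9 at 24 h. The arrays of 0 and 6 h lay low and those of 12 and 24 h high, with a wide gap between. It was 0.93 higher at 12 h (adjusted p = 0.000288) and 1.14 ± 0.12 SE higher at 24 h, or 2.20-fold (adjusted p = 3.63e-05).

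Trim25, the ligase that activates the sensor encoded by Ddx58, read 962.3 and 957.5 units at 0 h, 1089.1 and 1061.2 at 6 h, 1006.7 and 1090.2 at 12 h, and 1301.6 and 1186.2 at 24 h. The change at 24 h was small, 1.29-fold (0.37 ± 0.10 SE, adjusted p = 0.0176), and was lost without the first or second 0 h array (adjusted p = 0.0926 and 0.0942), the first 24 h array (0.141) and with the arrays centred (0.0838). A second probe set also passed at 24 h (0.43, adjusted p = 0.0130) and the third, dimmer one did not (0.13, adjusted p = 0.722). Lgals3bp, a secreted glycoprotein that binds galectins, read 143.4 and 228.0 units at 0 h, 112.7 and 116.4 at 6 h, 164.3 and 160.3 at 12 h, and 335.5 and 323.9 at 24 h. It was high only at 24 h, where both arrays lay above all others. The change was 1.73-fold (0.79 ± 0.20 SE, adjusted p = 0.0105), and the call was lost without the first 0 h array (0.49, adjusted p = 0.120) or the first or second 24 h array (0.0690 and 0.0575).

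**Figure D3:**
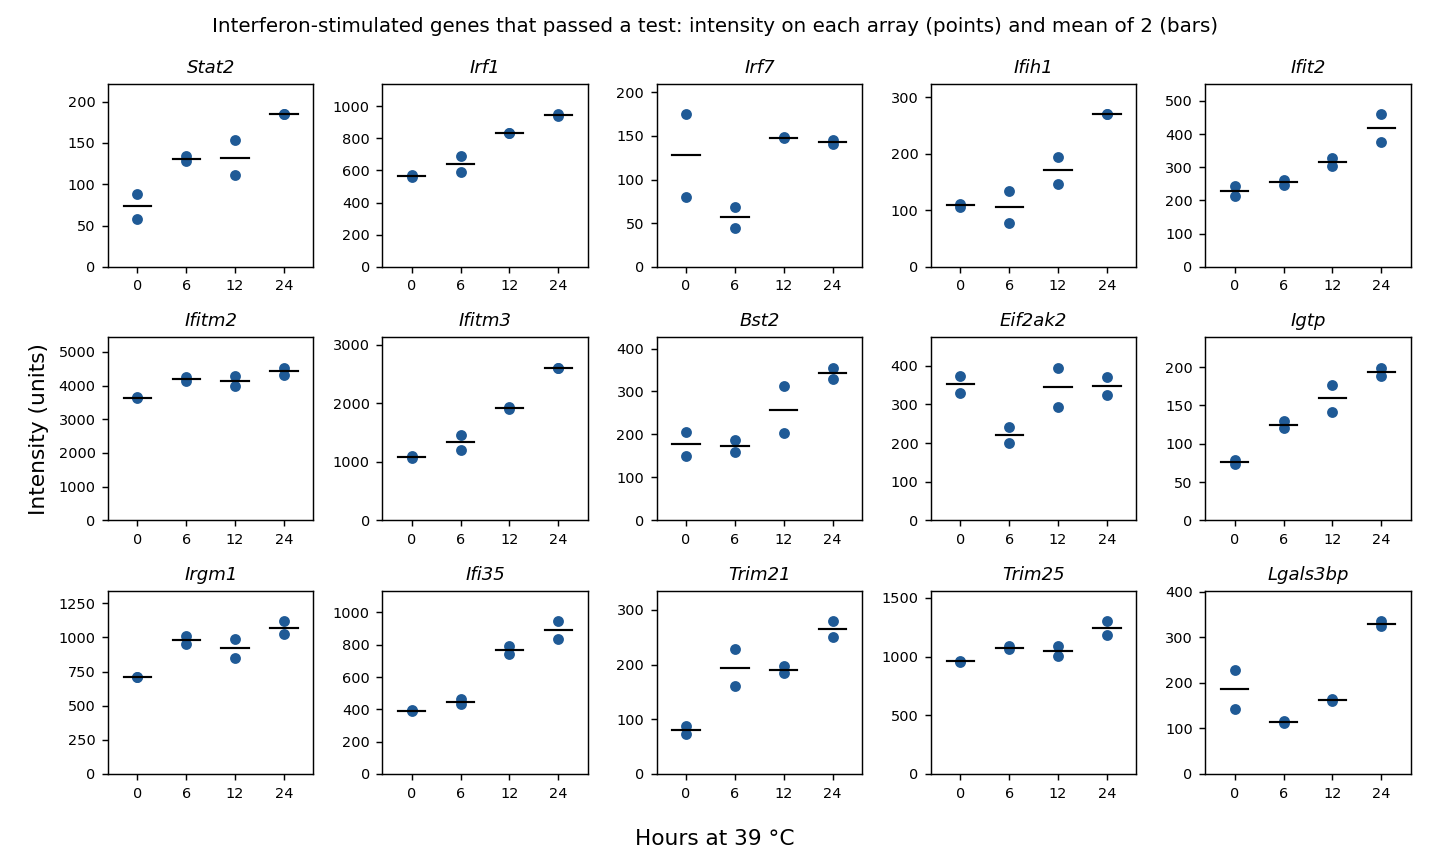
Intensity in units (vertical axes, each from 0) on each array (points) with the mean of 2 (bars) against the hours at 39 °C, for the 15 members that passed any test. The 13 genes called at 24 h have their highest pair of points there, above every earlier array, whereas Irf7 and Eif2ak2 have their lowest pair at 6 h.

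Neighbouring times were compared as well. From 6 to 12 h, 3 members rose, beside 4.93% of all genes, and none fell, beside 3.58% (limma, and 0 at an unadjusted p under 0.05). These were Ifi35 (0.76, adjusted p = 0.00416), Irf7 (1.13, adjusted p = 0.0389) and Ifitm3 (0.52, adjusted p = 0.0160). Fewer members passed without the second 12 h array and more without the second 6 h array, and the calls over all genes moved the same way. The call of Ifi35 stood in every setting, that of Irf7 was lost without the first 6 h array (adjusted p = 0.134), the first or second 12 h array (0.113 and 0.132) or the first or second 24 h array (0.0657 and 0.0656), and that of Ifitm3 without the first or second 12 h array (0.0709 and 0.0690). From 12 to 24 h, 2 members rose, beside 4.09% of all genes, and none fell, beside 3.27% (again 0 at an unadjusted p under 0.05). These were Lgals3bp, 1.91-fold (0.93, adjusted p = 0.0206), and Ifitm3 (0.44, adjusted p = 0.0326). No member passed that step without any one of the 12 or 24 h arrays, and 1 did without either 0 h array. Calls over all genes also became fewer in the fits without a 12 or 24 h array, with 33 to 126 genes higher, against 315 with all arrays.

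In the remaining 13 members the signal was too dim to judge. The genes Ifit1, Mx1, Mx2, Usp18, Gbp3, Parp14 and Sp100 stayed between 2.9 and 65.7 units on every array, below the filter of 74.0 units. They include the dynamin-like Mx GTPases and Usp18, which removes the ubiquitin-like Isg15 from its targets and damps the receptor, all strongly induced when cells receive interferon. The other 6, Dhx58, Oasl2, Rsad2, Ifitm1, Gbp2 and Iigp1, exceeded the filter on 2 to 4 arrays. Gbp2, a guanylate-binding protein, read 30.2 and 20.8 units at 0 h, 38.6 and 48.2 at 6 h, 105.7 and 122.8 at 12 h, and 112.6 and 164.0 at 24 h. All later arrays lay above both starting ones, with the large step between 6 and 12 h, and a second probe set read 12.6 and 27.4 units at 0 h, 7.5 and 42.1 at 6 h, 66.3 and 86.1 at 12 h, and 82.8 and 56.7 at 24 h. In the fit with no filter the change of Gbp2 was 1.53 at 12 h (adjusted p = 0.00902) and 1.75 at 24 h (adjusted p = 0.00301). Oasl2, an antiviral relative of the oligoadenylate synthetases, read 33.2 and 20.5 units at 0 h, 3.9 and 27.9 at 6 h, 63.5 and 45.6 at 12 h, and 109.4 and 78.2 at 24 h. In the same fit it was 1.25 higher at 24 h (adjusted p = 0.0482), while the other 11 dim members had adjusted p-values from 0.205 to 0.986 at 24 h. Of the genes with no probe set of their own, Isg15 shares its only probe set with another symbol and was not named from it, and Ddx58, Ifi44 and Xaf1 were not analysed here.

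**Figure D4:**
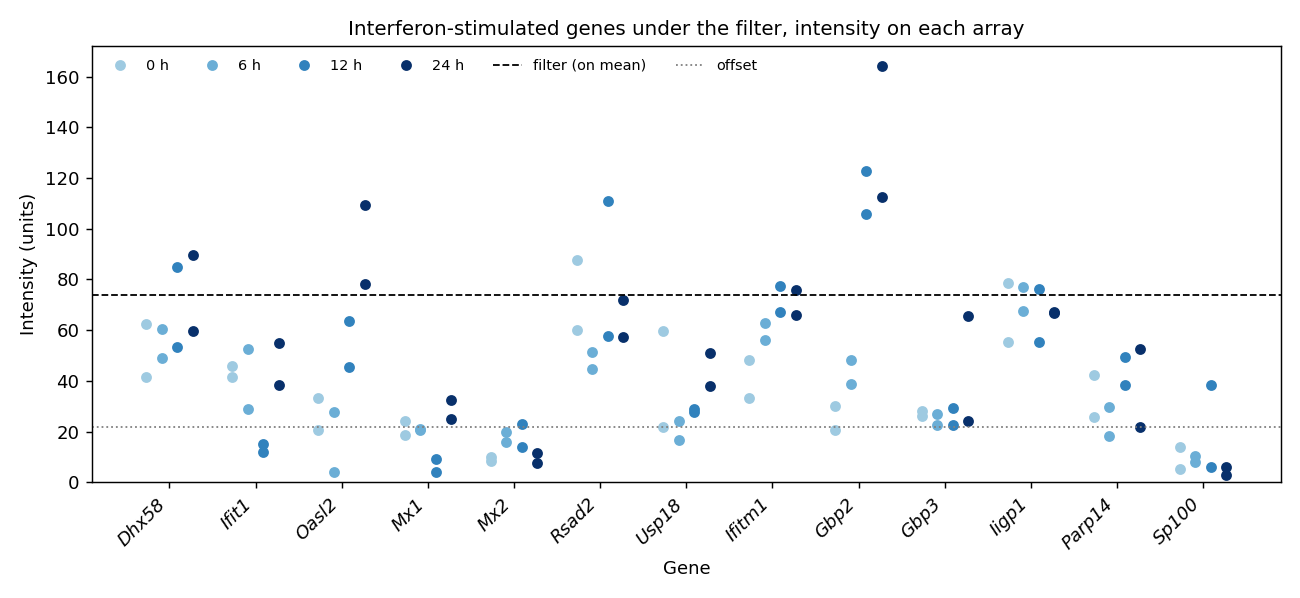
Intensity in units on each of the 8 arrays (points, darker with hours at 39 °C) for the 13 members whose mean log2 value lay under the filter. The dashed line is the filter, about 74.0 units, and the dotted line is the offset of 21.9 units. Gbp2 at 12 and 24 h and Oasl2 at 24 h lie above the dashed line on both arrays, while Ifit1, Mx1, Mx2, Usp18, Gbp3, Parp14 and Sp100 lie below it on every array.

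The rest of the pathway was followed on a list of 39 genes, of which 33 had a probe set and 23 could be tested. At 24 h, 7 of the 23 were higher (Ifngr2, Il10rb, Jak2, Irf3, Tbk1, Myd88 and Irf2) and none was lower (limma; at an unadjusted p under 0.05, Irf5 and Jak1 were), a share of 30.4% higher, beside 18.6% of all genes. Of the 7, only Ifngr2 and Il10rb passed in every setting. The count fell without either 0 h array or either 24 h array, fits in which calls over all genes also became fewer. It was 3 with the arrays centred, where 2 others were lower, and 2 with no filter. At 6 h, Irf3 and Myd88 were higher and Stat3 and Rela lower, and at 12 h, Ifngr2, Il10rb and Irf3 were higher and Ptpn2 lower. These are 8.7% higher and 8.7% lower at 6 h, beside 9.15% and 9.33% of all genes, and 13.0% higher and 4.35% lower at 12 h, beside 13.3% and 12.0%, so none of these shares exceeds the background. The 6 h calls of Rela, Myd88 and Stat3 were lost in 13, 11 and 7 of the alternative settings. The 12 h calls of Ifngr2 and Ptpn2 were lost in 4 settings each. All of these were lost without the first 0 h array, among other settings. The calls of Irf3 at 6 h (0.52 in that fit) and at 12 h (0.39) were lost in that setting only. The 12 h call of Il10rb was lost without the second 0 h array (0.0606).

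Transcripts of the interferons themselves were near the floor of the arrays. Ifnb1, the interferon beta gene, ran from 38.0 to 68.5 units with its lowest pair at 24 h. Among the interferon alpha genes, Ifna1 ran from 4.4 to 46.1 units and Ifna2 from 6.8 to 28.3 units, and Ifna4 lay between 2.9 and 82.0 units with 1 array above the filter. Ifng, the interferon gamma gene, ran from 4.0 to 37.3 units. The arrays measure mRNA and not secreted protein.

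The receptors were all bright enough to test and moved differently. Ifngr2, the signalling chain of the interferon gamma receptor, read 773.8 and 729.0 units at 0 h, 775.0 and 716.9 at 6 h, 1028.1 and 939.6 at 12 h, and 1240.0 and 1291.9 at 24 h. The 12 h and 24 h arrays lay above all earlier ones. It was 1.67-fold higher at 24 h (0.74 ± 0.11 SE, adjusted p = 0.000360), and a second probe set did not pass (0.37, adjusted p = 0.168). Il10rb, the chain shared by the receptors of interferon lambda and interleukin 10, read 652.6 and 558.7 units at 0 h, 723.8 and 711.6 at 6 h, 908.1 and 890.7 at 12 h, and 1126.7 and 1058.2 at 24 h. Each time lay above the one before, though the steps from 6 to 12 h (adjusted p = 0.104) and from 12 to 24 h (0.171) did not pass. The change of Il10rb at 24 h against 0 h was 1.78-fold (0.83 ± 0.11 SE, adjusted p = 0.000227). Ifngr1, the ligand-binding chain, ran from 415.4 to 713.4 units and missed at 24 h (0.42, adjusted p = 0.0525). The type I receptor did not pass in either chain, with Ifnar1 at 354.6 to 461.6 units (0.15 at 24 h, adjusted p = 0.385) and Ifnar2 at 322.5 to 446.6 units (0.04, adjusted p = 0.881).

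Irf3, the factor that first switches on interferon beta after a sensor fires, was among the genes called at 6 h. It read 417.8 and 498.7 units at 0 h, 724.0 and 725.2 at 6 h, 660.9 and 657.4 at 12 h, and 576.7 and 604.9 at 24 h. On this probe set the highest arrays were those of 6 h, and the change was 0.64 at 6 h (adjusted p = 0.00423) and 0.36 at 24 h (adjusted p = 0.0381). A second, dimmer probe set had its highest mean at 12 h, where it passed (0.63, adjusted p = 0.0342), and missed at 6 h (0.57, adjusted p = 0.0588) and 24 h (0.38, adjusted p = 0.150). The 6 h call was lost without the first 0 h array (adjusted p = 0.0603), and the 24 h call without the first 0 h array (0.291) or the first or second 24 h array (0.107 and 0.181). Irf2, a factor that binds the same element as Irf1 and can oppose it, read 66.7 and 102.8 units at 0 h, 101.7 and 153.9 at 6 h, 89.4 and 166.4 at 12 h, and 188.3 and 202.8 at 24 h. The earlier times overlapped and both 24 h arrays were the highest (1.05 ± 0.29 SE, adjusted p = 0.0155), a call lost without the first 0 h array (0.132) or the first or second 24 h array (0.0639 and 0.0894).

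**Figure D5:**
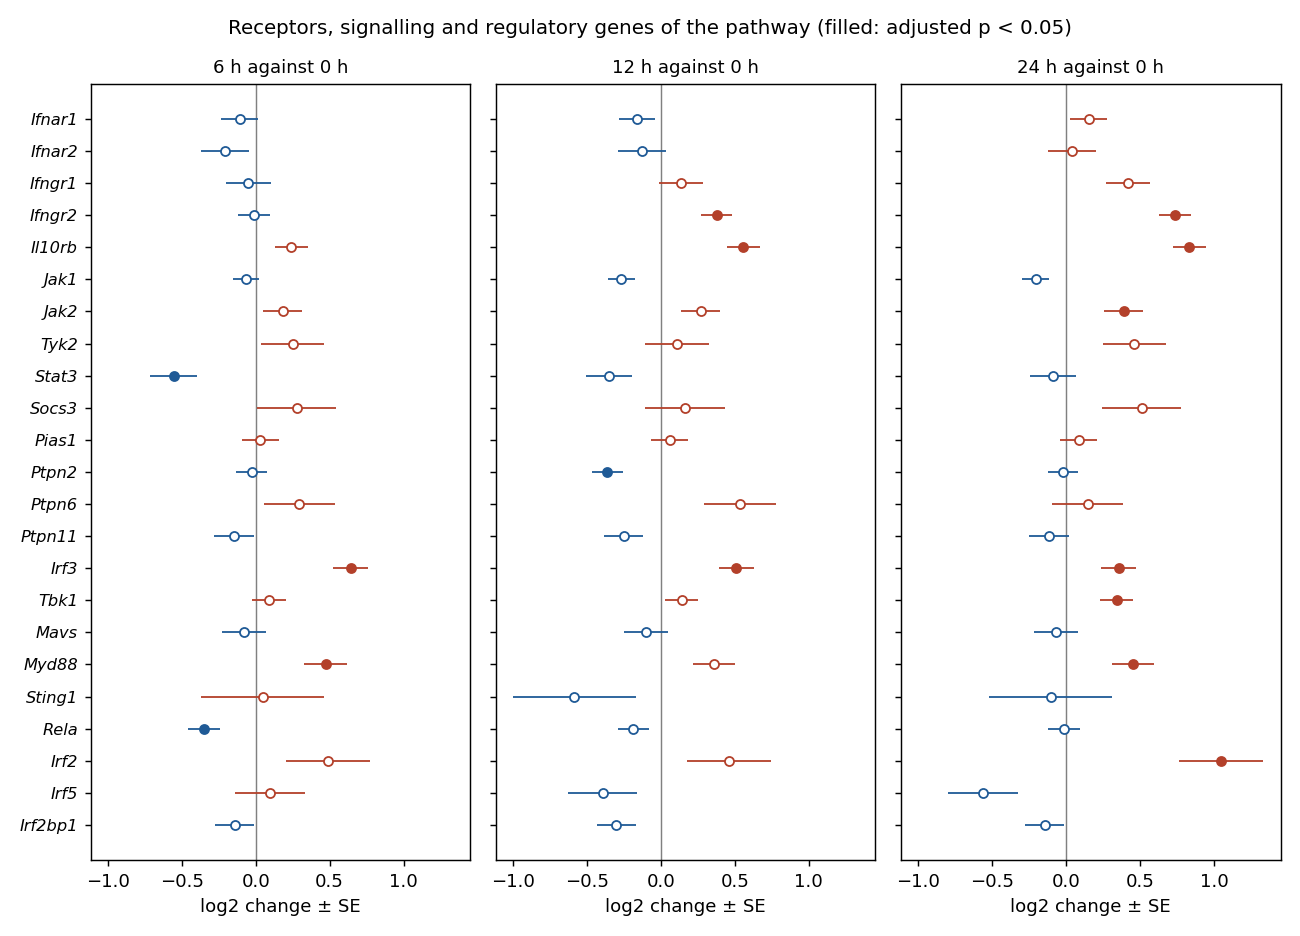
Log2 change (points) with its standard error (bars) of the 23 tested receptors, kinases, inhibitors and regulators of the pathway at 6, 12 and 24 h, each against 0 h with 2 arrays per time. Filled points passed at adjusted p below 0.05. Ifngr2 and Il10rb are filled at 12 and 24 h, and Irf3 is filled at all 3 times with its largest change at 6 h.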

How the data were processed

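Total RNA of 8 TTE3 samples, 2 for each of 4 times, was labelled and hybridised singly to Affymetrix 430A mouse arrays, per the labels. The deposited values are linear intensities per probe set (0.1 to 38130.2 units), made by software not given in the sources used here. Trimmed by 2% at each end, the mean was 500.2 on each array, so the deposited intensities were already scaled to a common mean and cannot show a change in total mRNA per cell. Across probe sets, arrays correlated with r = 0.979 to 0.986 within a time and 0.967 to 0.979 between times, on the log2 scale. The number of arrays limits the precision, and no detection call was used.

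Of 22690 probe sets, 64 controls were left out, and 20380 carried 1 gene symbol, 691 several and 1555 none in the platform annotation. The deposited intensities were taken as log2(intensity + 21.9), the offset being the 20th percentile of all values, with no further normalization. The filter left out every probe set whose log2 values averaged less than the 40th percentile (6.58, about 74.0 units). limma 3.58.1 in R 4.3.3 fitted time as 4 groups on all 8 arrays, with a variance trend, 4 residual and 7.22 prior degrees of freedom. Adjusted p-values are Benjamini-Hochberg over 13576 probe sets. Background shares count 1 probe set per gene, that with the highest mean, over 7707 genes. The script was checked on simulated data.

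Promoters came from a RefSeq table of build GRCm38.p6. Members, gene lists and motifs were chosen with earlier results of these data known. Members that passed the test over all times or a comparison with 0 h are given array by array, the others by range. From the pathway list only genes that passed, and the interferons and their receptors, are given values. Gbp2 and Oasl2 were singled out among the dim members after their values were seen. Offsets, filters, normalizations, the variance trend, the replicate number as a block, the probe set rule, fits of 2 times only and leaving out each array were tried as alternatives.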

Additional observations from a re-analysis of the deposited data

How the results depend on the processing

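Every change that passed a test kept its sign in each alternative. Over 44 such changes and 735 values, 584 kept their side of the threshold, 151 did not and 0 reversed. Of the 13 members higher at 24 h, 9 passed in each setting that tested them (Stat2, Irf1, Ifit2, Ifih1, Ifi35, Ifitm3, Trim21, Igtp and Irgm1). Of the 7 higher at 12 h, 3 did (Ifi35, Ifitm3 and Trim21). A filter at the 60th percentile, which tests fewer genes, left 6 members in the test over all times, 1 higher at 6 h, 7 higher at 24 h and 1 higher from 12 to 24 h. With no filter 0 members were lower at 6 h and 0 higher from 12 to 24 h, while 15 were higher at 24 h. Without a variance trend there were 4 higher and 2 lower at 6 h, 1 higher from 6 to 12 h and 1 higher from 12 to 24 h. Calls over all genes moved in these fits too. In the main fit 1430 of 7707 genes were higher at 24 h. There were 1169 of 5467 with the 60th percentile filter, 1252 of 12393 with no filter and 1302 of 7707 without a variance trend. From 6 to 12 h, 210 of all genes were higher without a variance trend, against 380 in the main fit. Quantile normalization gave 2 lower at 6 h. Centring each array on its median gave 2 lower at 6 h and 1 higher from 12 to 24 h, moved the median of all genes at 24 h to -0.09, against 0.02 as deposited, and the members' median to 0.57, against 0.67. At 12 h centring called 822 of all genes higher and 1114 lower, against 1023 and 922. Counting each probe set on its own gave 2 lower at 6 h and 1 lower at 24 h, through the second Samhd1 probe set. Fitting only the 2 times compared left 1 higher from 6 to 12 h. The cause of these differences was not tested.

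Leaving out 1 array at a time gave 8 to 15 members in the test over all times, 1 to 3 higher and 0 to 2 lower at 6 h, 5 to 9 higher at 12 h, 9 to 13 higher at 24 h, 1 to 6 higher from 6 to 12 h and 0 to 2 higher from 12 to 24 h. No member was lower at 12 h, at 24 h or in the later steps in any of these fits. The replicate numbers paired the arrays weakly at most: the 6 correlations of replicate differences between times were all positive and ran from 0.05 to 0.18. Over all genes, 3561 passed the test over all times with the replicate number as a block, against 3238 without it. With replicate block the counts were 2 lower at 6 h and otherwise 13 over all times, 2 higher at 6 h, 7 at 12 h, 13 at 24 h, 4 from 6 to 12 h and 2 from 12 to 24 h. Signal near the floor limits the 13 dim members, for which small changes could not be seen.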
